A study of Mus musculus with 4 samples.

Results

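Type I interferon-stimulated genes were followed in mouse T cells of 2 receptor types, each stimulated with 2 peptides. The set is a list of 37 genes taken by symbol under a rule that holds no measured value, though it was drawn up with earlier results of these data known. All 37 had a row among the 16338 gene rows and passed the filter that left 16100 genes tested (a mean of at least 1 normalized count). The groups were TRP1high T cells with the M9 peptide, TRP1high T cells with the K8 peptide, TRP1low T cells with the M9 peptide and TRP1low T cells with the K8 peptide, and in all of them the peptide was shown on B cells for 48 h before T cells were sorted and RNA was prepared. TRP1 (tyrosinase-related protein 1) is a melanocyte protein and melanoma antigen, and the study concerns how peptide binding to MHC class I bears on CD8 T cell effector responses. There was 1 library for each group, and every difference is therefore between single libraries, without replicates. Age, sex and strain are not in the labels, and no group without peptide or with interferon was analysed here.

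Type I interferons, the alpha and beta interferons, bind a receptor made of IFNAR1 and IFNAR2, whose kinases JAK1 and TYK2 phosphorylate STAT proteins, STAT2 among them. Phosphorylated STAT2 joins IRF9 in a complex that binds the interferon-stimulated response element in the promoters of many genes that sense viral nucleic acid, block viral replication or adjust the response itself. In CD8 T cells these interferons act during priming by infected or activated cells, and interferon gamma, which T cells make themselves, induces part of the same genes.

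Values are the deposited log2 of a normalized count plus 1, called levels here. Estimated depth was 41.5 M reads in TRP1high with M9, 40.5 M in TRP1high with K8, 40.3 M in TRP1low with M9 and 29.6 M in TRP1low with K8. A floor of 3 reads lies at log2 1.99 to 2.05 in the first 3 and at 2.35 in TRP1low with K8. Transcripts that define CD8 T cells were abundant in all libraries, with the 9 markers tested between log2 11.92 and 15.49. B cell transcripts were also present: the 12 B cell markers summed to 155 normalized counts in TRP1high with M9 and 1995 in TRP1high with K8, and to 378 in TRP1low with M9 and 1343 in TRP1low with K8. Bulk RNA cannot tell fewer cells of a type from less RNA per cell.

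Promoters are shown for the members on which the peptide comparison turned: Rsad2 and Isg15, higher with M9 in both receptors, Ifit3 and Ifi203, lower in both, and Ifi44, Irf7 and Ifih1, higher in TRP1high and lower in TRP1low. Each window runs from 250 bases before to 50 bases after a gene start in RefSeq (GRCm38.p6), read 5′ to 3′ on the gene's strand. Capitals mark matches, on either strand, to a core of the interferon-stimulated response element, the half-site GAAA repeated after 2 bases of any kind (TTTC repeated in the same way on the other strand). Overlapping matches were each counted. The windows are chr12:26456403-26456702, minus strand (Rsad2), chr4:156200769-156201068, minus strand (Isg15), chr19:34583279-34583578, plus strand (Ifit3), chr1:173942623-173942922, minus strand (Ifi203, the closer of its 2 listed windows to the GENCODE M21 gene start), chr3:151749861-151750160, minus strand (Ifi44), chr7:141266375-141266674, minus strand (Irf7) and chr2:62646206-62646505, minus strand (Ifih1).
Rsad2: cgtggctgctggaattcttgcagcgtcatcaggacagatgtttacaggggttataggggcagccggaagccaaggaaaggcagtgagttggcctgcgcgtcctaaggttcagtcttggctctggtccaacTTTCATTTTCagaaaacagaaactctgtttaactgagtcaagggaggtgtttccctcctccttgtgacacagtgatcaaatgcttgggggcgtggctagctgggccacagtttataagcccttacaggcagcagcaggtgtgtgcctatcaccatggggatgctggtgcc
Isg15: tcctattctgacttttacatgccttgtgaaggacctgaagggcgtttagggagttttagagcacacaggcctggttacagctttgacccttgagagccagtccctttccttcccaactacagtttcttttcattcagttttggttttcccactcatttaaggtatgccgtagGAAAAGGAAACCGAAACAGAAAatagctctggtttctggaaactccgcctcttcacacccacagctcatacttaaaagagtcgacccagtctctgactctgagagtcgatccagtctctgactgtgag
Ifit3: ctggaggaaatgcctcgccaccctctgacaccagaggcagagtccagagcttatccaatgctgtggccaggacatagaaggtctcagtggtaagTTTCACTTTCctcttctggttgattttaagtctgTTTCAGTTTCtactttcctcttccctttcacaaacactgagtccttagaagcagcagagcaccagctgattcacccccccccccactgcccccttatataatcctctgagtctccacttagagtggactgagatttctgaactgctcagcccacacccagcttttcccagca
Ifi203: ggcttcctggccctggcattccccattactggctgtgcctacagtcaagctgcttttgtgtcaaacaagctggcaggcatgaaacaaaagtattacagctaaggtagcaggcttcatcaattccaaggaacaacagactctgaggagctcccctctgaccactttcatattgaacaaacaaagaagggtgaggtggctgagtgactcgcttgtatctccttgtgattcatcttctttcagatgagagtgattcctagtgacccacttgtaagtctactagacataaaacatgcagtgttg
Ifi44: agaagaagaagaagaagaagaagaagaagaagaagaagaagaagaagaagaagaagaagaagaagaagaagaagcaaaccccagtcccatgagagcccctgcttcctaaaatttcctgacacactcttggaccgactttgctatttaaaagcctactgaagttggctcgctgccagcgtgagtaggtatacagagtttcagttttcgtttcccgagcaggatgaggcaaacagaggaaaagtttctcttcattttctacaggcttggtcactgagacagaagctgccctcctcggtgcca
Irf7: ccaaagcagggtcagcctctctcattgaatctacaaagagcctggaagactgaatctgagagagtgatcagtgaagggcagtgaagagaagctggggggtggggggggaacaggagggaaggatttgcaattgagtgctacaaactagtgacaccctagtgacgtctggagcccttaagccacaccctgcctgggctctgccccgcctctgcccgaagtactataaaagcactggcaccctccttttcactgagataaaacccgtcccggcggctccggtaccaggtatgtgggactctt
Ifih1: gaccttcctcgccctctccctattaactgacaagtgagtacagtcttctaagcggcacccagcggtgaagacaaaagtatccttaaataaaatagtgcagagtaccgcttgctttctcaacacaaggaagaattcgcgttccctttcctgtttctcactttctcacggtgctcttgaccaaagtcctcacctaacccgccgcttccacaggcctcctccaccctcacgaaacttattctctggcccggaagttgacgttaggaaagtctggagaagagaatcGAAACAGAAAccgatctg

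Isg15 held 3 overlapping matches, which began 78, 72 and 66 bases before the start, Ifit3 held 2 on the other strand, Rsad2 held 1 on the other strand, and Ifih1 held 1 within its first transcribed bases. Irf7, Ifi44 and the printed Ifi203 window held 0, while the second Ifi203 window held 1. RefSeq promoter windows matched 27 of the 37 members. Of these 27, 12 held the motif (44.4%), against 428 of the 10654 tested genes with a window (4.02%). A match is a string of letters in this window and says nothing of binding.

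The TRP1high library with M9 held the highest level of most members. It was the highest of the 4 libraries for 26 of 37 members, against 24.2% of all genes tested, while TRP1low with M9 was the highest for 0 of 37, against 22.2% of all genes. TRP1low with K8 was the highest for 8 members (Ifih1, Ddx58, Ifi44, Ifit3, Rtp4, Herc6, Samd9l and Ifi203), against 31.2% of all genes, and TRP1high with K8 for 3 (Ifit2, Oas2 and Oasl1), against 22.3%. The lowest level lay in TRP1low with M9 for 16 members, against 16.9% of all genes, and in TRP1low with K8 for 14, against 31.6%. It lay in TRP1high with K8 for 4 (Irf9, Ifih1, Ifi44 and Herc6), against 19.4%, and in TRP1high with M9 for 2 (Ifit2 and Ifi203), against 28.2%. Oas2, at 0 in both TRP1low libraries, had no single lowest. The order takes no account of size. Oas2 had 7 reads in TRP1high with K8 and 6 in TRP1high with M9. Ifit2 stood at log2 9.55 in TRP1high with K8 and 9.52 in TRP1low with K8. The median level over the members was log2 9.0 in TRP1high with M9 and 7.77 in TRP1high with K8, and 6.98 in TRP1low with M9 and 8.03 in TRP1low with K8.

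**Figure D1:**
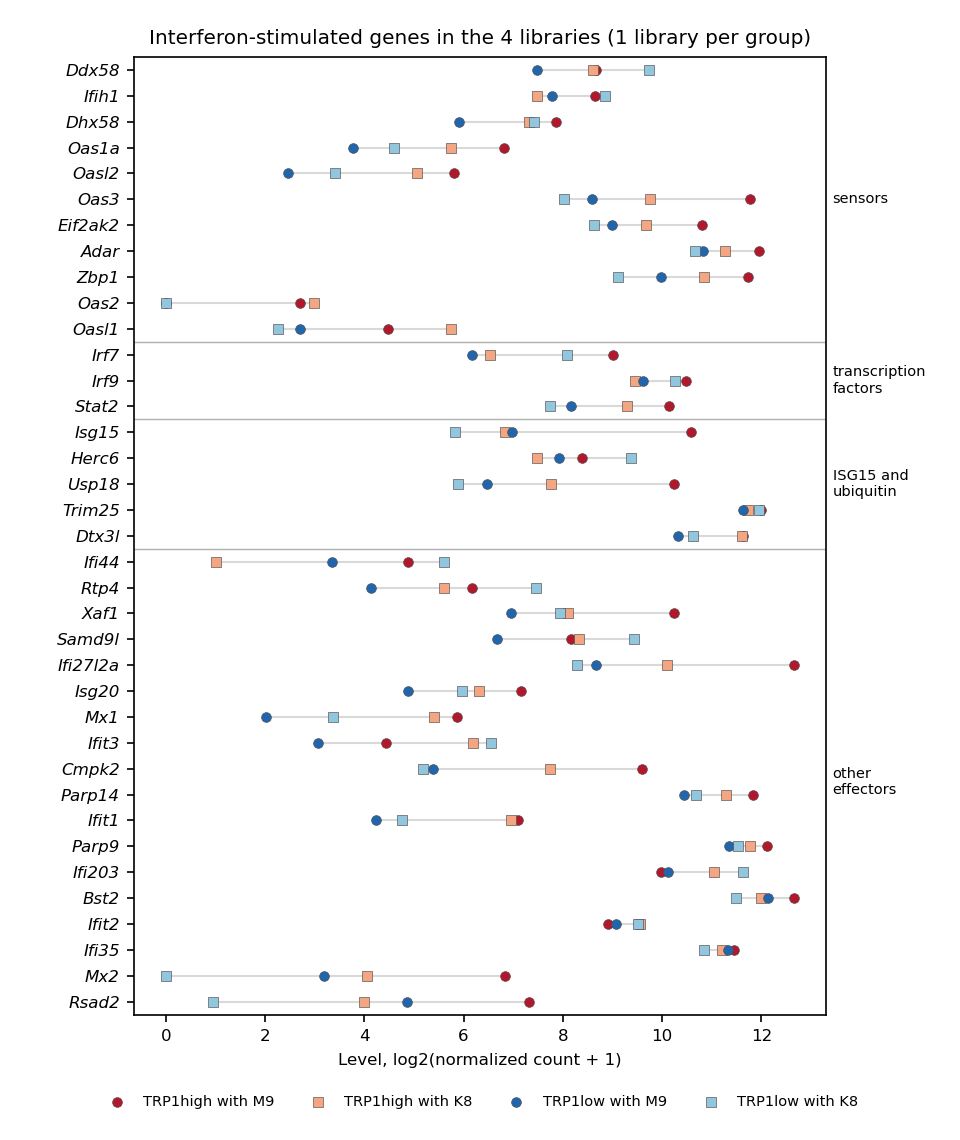
Level of each of the 37 members, log2(normalized count + 1) on the x axis, in the 4 libraries (circles M9, squares K8, red shades TRP1high, blue shades TRP1low), 1 library per point, grouped by role. The dark red circle (TRP1high with M9) lies farthest right for 26 members. For Oas2, both TRP1low libraries lie at 0.

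The peptide comparison asked how M9 and K8 stimulation differed within each receptor. Most members were higher with M9 in TRP1high, and more were lower than higher with M9 in TRP1low. A member was called when it lay at least 2-fold apart on the log2 scale and reached 10 normalized counts in either library of the pair. In TRP1high, 14 of 37 members were called higher with M9, against 5.14% of all genes, and 3 were called lower, against 4.73% (17 in either direction, against 9.87%). In TRP1low, 2 were called higher, against 7.67% of all genes, and 11 were called lower, against 7.43% (13 in either direction, against 15.1%). The members' median difference was 0.74 in TRP1high and -0.34 in TRP1low, beside -0.02 and 0.02 over all genes. In TRP1high 31 of 37 members lay above 0 (45.8% of all genes), and in TRP1low 14 lay above 0 (51.8%).

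Among the transcription factors, Irf7, the master inducer of interferon alpha genes, differed in opposite directions. It stood at log2 9.0 with M9 and 6.52 with K8 in TRP1high, and at 6.17 with M9 and 8.09 with K8 in TRP1low. The M9 library was 5.62-fold (95% counting interval 4.50 to 7.12) higher in TRP1high and 3.81-fold (2.88 to 5.10) lower in TRP1low. Irf9, the DNA-binding subunit of the complex with STAT2, stood at log2 10.49 with M9 and 9.45 with K8 in TRP1high, and at 9.62 with M9 and 10.27 with K8 in TRP1low. Its level with M9 was 2.05-fold higher in TRP1high, with a log2 difference of -0.64 in TRP1low. Stat2, the subunit that carries the transactivation domain, stood at log2 10.15 with M9 and 9.29 with K8 in TRP1high, and at 8.17 with M9 and 7.75 with K8 in TRP1low, with differences of 0.85 and 0.42, both under 2-fold. For Stat2 both TRP1high libraries lay above both TRP1low libraries, whereas Irf7 and Irf9 were highest in TRP1high with M9 and next highest in TRP1low with K8.

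Of the 11 sensors of nucleic acid and RNA-acting enzymes, M9 gave 4 calls of higher and 1 of lower in TRP1high. In TRP1low it gave 0 of higher and 3 of lower. Of all genes, 5.14% were called higher and 4.73% lower in TRP1high, and 7.67% and 7.43% in TRP1low. The same shares stand beside the peptide counts of the other roles and lists below. The RIG-I-like receptors were lower with M9 in TRP1low. Ddx58, which encodes RIG-I, the receptor for RNA ends with triphosphates, stood at log2 8.67 with M9 and 8.61 with K8 in TRP1high, and at 7.47 with M9 and 9.73 with K8 in TRP1low. It was 4.81-fold (4.05 to 5.74) lower with M9 in TRP1low and differed by 0.07 in TRP1high. Ifih1, which encodes MDA5, the sensor of long double-stranded RNA, stood at log2 8.65 with M9 and 7.49 with K8 in TRP1high, and at 7.79 with M9 and 8.84 with K8 in TRP1low. M9 cells held 2.25-fold (95% counting interval 1.88 to 2.69) more in TRP1high and 2.09-fold (1.75 to 2.48) less in TRP1low. Dhx58, which encodes the regulator LGP2, stood at log2 7.86 with M9 and 7.32 with K8 in TRP1high, and at 5.90 with M9 and 7.42 with K8 in TRP1low, 2.90-fold (2.09 to 4.03) lower with M9 in TRP1low.

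The oligoadenylate synthetases make the second messenger that switches on RNase L. Oas3 stood at log2 11.77 with M9 and 9.76 with K8 in TRP1high, and at 8.59 with M9 and 8.03 with K8 in TRP1low, 4.02-fold (95% counting interval 3.73 to 4.33) higher with M9 in TRP1high and 0.56 apart on the log2 scale in TRP1low. Oas1a, at log2 6.80 with M9 and 5.75 with K8 in TRP1high, and at 3.76 with M9 and 4.60 with K8 in TRP1low, was 2.09-fold (95% counting interval 1.5 to 2.96) higher with M9 in TRP1high and had 12 and 17 reads with M9 and K8 in TRP1low. Oasl1, which in mouse represses translation of Irf7, stood at log2 4.48 with M9 and 5.74 with K8 in TRP1high, and at 2.70 with M9 and 2.25 with K8 in TRP1low, and was the sensor called lower with M9 in TRP1high, by 2.46-fold (1.48 to 4.37). Its TRP1low libraries held 5 reads with M9 and 3 with K8. Oasl2, a synthetase-like gene, stood at log2 5.80 with M9 and 5.05 with K8 in TRP1high, and at 2.47 with M9 and 3.41 with K8 in TRP1low, with a difference of 0.74 in TRP1high, and had 4 and 7 reads with M9 and K8 in TRP1low. Oas2 stood at log2 2.70 with M9 and 2.99 with K8 in TRP1high, and at 0.00 with M9 and 0.00 with K8 in TRP1low, and had 6 and 7 reads with M9 and K8 in TRP1high and 0 in both TRP1low libraries.

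Eif2ak2, the kinase PKR, which halts translation on double-stranded RNA, stood at log2 10.81 with M9 and 9.68 with K8 in TRP1high, and at 8.99 with M9 and 8.63 with K8 in TRP1low, 2.20-fold (95% counting interval 2.02 to 2.39) higher with M9 in TRP1high. Zbp1, a sensor of Z-form nucleic acid that triggers cell death, stood at log2 11.74 with M9 and 10.84 with K8 in TRP1high, and at 9.97 with M9 and 9.11 with K8 in TRP1low, with nearly equal differences of 0.90 and 0.86. Adar, which edits adenosine to inosine in double-stranded RNA, stood at log2 11.95 with M9 and 11.26 with K8 in TRP1high, and at 10.83 with M9 and 10.66 with K8 in TRP1low, with differences of 0.69 and 0.16. For Eif2ak2, Zbp1 and Adar the order was the same, with both TRP1high libraries above both TRP1low libraries and M9 above K8 in each receptor.

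Of the 5 genes of the ISG15 system and ubiquitin ligases, 2 were called higher with M9 in TRP1high, and 1 higher and 1 lower in TRP1low. Isg15, a ubiquitin-like protein that is joined to newly made proteins, stood at log2 10.57 with M9 and 6.84 with K8 in TRP1high, and at 6.98 with M9 and 5.83 with K8 in TRP1low. It was 13.4-fold (95% counting interval 11.1 to 16.3) higher with M9 in TRP1high and 2.23-fold (95% counting interval 1.55 to 3.26) higher in TRP1low. Usp18, which removes ISG15 from proteins and restrains the interferon receptor, stood at log2 10.23 with M9 and 7.77 with K8 in TRP1high, and at 6.47 with M9 and 5.88 with K8 in TRP1low, 5.55-fold (95% counting interval 4.80 to 6.45) higher with M9 in TRP1high and 0.59 apart on the log2 scale in TRP1low. Herc6, the mouse ligase that joins ISG15 to proteins, stood at log2 8.38 with M9 and 7.48 with K8 in TRP1high, and at 7.92 with M9 and 9.36 with K8 in TRP1low and was 2.72-fold (2.32 to 3.19) lower with M9 in TRP1low. Trim25, a ubiquitin ligase that acts on RIG-I, and Dtx3l, a ligase that works with PARP9, lay within 2-fold. Trim25 stood at log2 11.99 with M9 and 11.72 with K8 in TRP1high, and at 11.62 with M9 and 11.96 with K8 in TRP1low. Dtx3l stood at log2 11.63 with M9 and 11.61 with K8 in TRP1high, and at 10.33 with M9 and 10.63 with K8 in TRP1low, near equal between peptides and higher in both TRP1high libraries. The differences of Trim25 and Dtx3l were 0.26 and 0.03 in TRP1high and -0.34 and -0.30 in TRP1low.

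The 18 other effectors include 3 of the 4 members called in the same direction in both receptors. With M9, 6 were called higher and 2 lower in TRP1high, and 1 higher and 6 lower in TRP1low. Rsad2, which encodes viperin, an enzyme that makes a chain-terminating nucleotide, stood at log2 7.31 with M9 and 3.99 with K8 in TRP1high, and at 4.85 with M9 and 0.95 with K8 in TRP1low. It was 10.6-fold (95% counting interval 6.18 to 19.2) higher with M9 in TRP1high. Its ratio in TRP1low was 29.9 (3.41 to 848), on 27 reads with M9 and 1 with K8. Cmpk2, the mitochondrial nucleotide kinase gene next to Rsad2 on chromosome 12, stood at log2 9.59 with M9 and 7.74 with K8 in TRP1high, and at 5.39 with M9 and 5.18 with K8 in TRP1low, 3.63-fold (95% counting interval 3.12 to 4.24) higher with M9 in TRP1high and 0.21 apart on the log2 scale in TRP1low. The GTPase gene Mx2 is a polymorphic pseudogene in GENCODE M21, and the labels do not give the strain. It stood at log2 6.83 with M9 and 4.05 with K8 in TRP1high, and at 3.18 with M9 and 0.00 with K8 in TRP1low. It was 7.25-fold (95% counting interval 4.17 to 12.8) higher with M9 in TRP1high. Its TRP1low libraries held 8 reads with M9 and 0 with K8, under the 10 normalized counts a call needs. Mx1, a GTPase that blocks influenza virus in mouse, stood at log2 5.87 with M9 and 5.40 with K8 in TRP1high, and at 2.02 with M9 and 3.36 with K8 in TRP1low, and had 58 and 41 reads with M9 and K8 in TRP1high, and 3 and 7 with M9 and K8 in TRP1low.

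Ifi27l2a, a small interferon-inducible membrane protein, stood at log2 12.65 with M9 and 10.10 with K8 in TRP1high, and at 8.67 with M9 and 8.28 with K8 in TRP1low, 5.89-fold (95% counting interval 5.52 to 6.28) higher with M9 in TRP1high and 0.39 apart in TRP1low. Xaf1, which binds the apoptosis inhibitor XIAP, stood at log2 10.24 with M9 and 8.11 with K8 in TRP1high, and at 6.96 with M9 and 7.94 with K8 in TRP1low, 4.40-fold (95% counting interval 3.86 to 5.04) higher with M9 in TRP1high, and 1.99-fold lower in TRP1low, just under the limit for a call. Ifi44, a cytoplasmic protein, stood at log2 4.87 with M9 and 1.02 with K8 in TRP1high, and at 3.35 with M9 and 5.61 with K8 in TRP1low. It was 5.22-fold (2.39 to 12.0) lower with M9 in TRP1low, and 27.6-fold higher in TRP1high, where 29 reads with M9 stood against 1 with K8 and the interval ran from 4.77 to 1174.

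Samd9l, a growth-restraining antiviral factor, stood at log2 8.16 with M9 and 8.32 with K8 in TRP1high, and at 6.67 with M9 and 9.43 with K8 in TRP1low, 6.84-fold (5.49 to 8.61) lower with M9 in TRP1low. Rtp4, a transporter chaperone, stood at log2 6.18 with M9 and 5.61 with K8 in TRP1high, and at 4.14 with M9 and 7.45 with K8 in TRP1low, 10.4-fold (6.13 to 18.7) lower with M9 in TRP1low. Isg20, an RNA exonuclease, stood at log2 7.16 with M9 and 6.31 with K8 in TRP1high, and at 4.87 with M9 and 5.97 with K8 in TRP1low, 2.18-fold (1.32 to 3.64) lower with M9 in TRP1low and 0.85 apart on the log2 scale in TRP1high. In each of these 3 genes the single lowest library was TRP1low with M9.

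Ifit3, one of the RNA-binding Ifit proteins, was lower with M9 in both receptors and stood at log2 4.44 with M9 and 6.19 with K8 in TRP1high, and at 3.06 with M9 and 6.55 with K8 in TRP1low. M9 libraries held 3.46-fold (2.10 to 5.92) less in TRP1high and 12.7-fold (5.83 to 32.7) less in TRP1low. Of its neighbours on chromosome 19, the members Ifit2 and Ifit1 did not share this size. Ifit2 differed by -0.64 in TRP1high and -0.45 in TRP1low, and Ifit1 by 0.14 and -0.52. Ifit1bl1, a neighbour outside the members, differed by more than Ifit3, at -3.02 in TRP1high and -5.06 in TRP1low. On 2 to 26 reads, Ifit3b differed by -2.76 and -0.71, and Ifit1bl2 by 1.46 and -0.47. Ifit2 stood at log2 8.92 with M9 and 9.55 with K8 in TRP1high, and at 9.07 with M9 and 9.52 with K8 in TRP1low, so that its libraries differed little by receptor. Ifit1 stood at log2 7.10 with M9 and 6.96 with K8 in TRP1high, and at 4.24 with M9 and 4.75 with K8 in TRP1low, higher in both TRP1high libraries. Ifi203, a HIN-200 protein of the nucleus, stood at log2 9.97 with M9 and 11.05 with K8 in TRP1high, and at 10.11 with M9 and 11.62 with K8 in TRP1low, 2.10-fold (1.95 to 2.27) lower with M9 in TRP1high and 2.85-fold (2.65 to 3.07) lower in TRP1low. The other 4 effectors, Bst2 (tetherin, which holds budding virus at the membrane), Ifi35, and the ADP-ribosyltransferases Parp9 and Parp14, lay between 0.24 and 0.67 in TRP1high and between -0.25 and 0.64 in TRP1low. Bst2 stood at log2 12.66 with M9 and 11.99 with K8 in TRP1high, and at 12.12 with M9 and 11.48 with K8 in TRP1low. Ifi35 stood at log2 11.46 with M9 and 11.21 with K8 in TRP1high, and at 11.33 with M9 and 10.84 with K8 in TRP1low. Both were lowest in TRP1low with K8. Parp9 stood at log2 12.12 with M9 and 11.77 with K8 in TRP1high, and at 11.36 with M9 and 11.53 with K8 in TRP1low. Parp14 stood at log2 11.82 with M9 and 11.29 with K8 in TRP1high, and at 10.43 with M9 and 10.68 with K8 in TRP1low. Parp9 and Parp14 were higher in both TRP1high libraries than in both TRP1low libraries.

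The difference between the receptors in their peptide difference was taken gene by gene, as M9 minus K8 in TRP1high less M9 minus K8 in TRP1low. It was at least 2-fold above 0 for 20 of 37 members, against 9.07% of all genes, and below 0 for 1 (Oasl1, -1.71), against 9.68% (21 in either direction, against 18.8%). The median over the members was 1.65, beside -0.06 over all genes, and 31 of 37 lay above 0 (45.5% of all genes). After Ifi44 (6.12, with 1 read in 1 library), Irf7 had the largest difference, at 4.39 on the log2 scale, followed by Rtp4 (3.88) and Xaf1 (3.12). Without the added 1 these differences were 4.42 for Irf7 (95% Poisson counting interval 3.91 to 4.93), 3.96 for Rtp4 (3.05 to 4.88) and 3.13 for Xaf1 (2.75 to 3.52). Isg15 (2.59), Samd9l (2.60), Herc6 (2.34), Ddx58 (2.33), Ifih1 (2.22), Dhx58 (2.06) and Ifi27l2a (2.17) lay above 2. Bst2 (0.03) and Zbp1 (0.04) had nearly equal peptide differences in both receptors.

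In both receptors, 4 members were called in the same direction. Isg15 and Rsad2 were higher (5.41% of members, against 1.58% of all genes), and Ifit3 and Ifi203 lower (5.41%, against 1.57%). A further 3 were called in opposite directions (8.11%, against 1.14%). The opposite 3, Ifi44, Irf7 and Ifih1, were each higher with M9 in TRP1high and lower in TRP1low, a direction that 0.658% of all genes took. With a minimum of 50 normalized counts in place of 10, Rsad2 was no longer called in TRP1low and Ifi44 was called in neither receptor. Without regard to size, 18 members lay above 0 in TRP1high and below 0 in TRP1low (16.6% of all genes), and 1, Oasl1, lay the other way (22.8% of all genes).

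**Figure D2:**
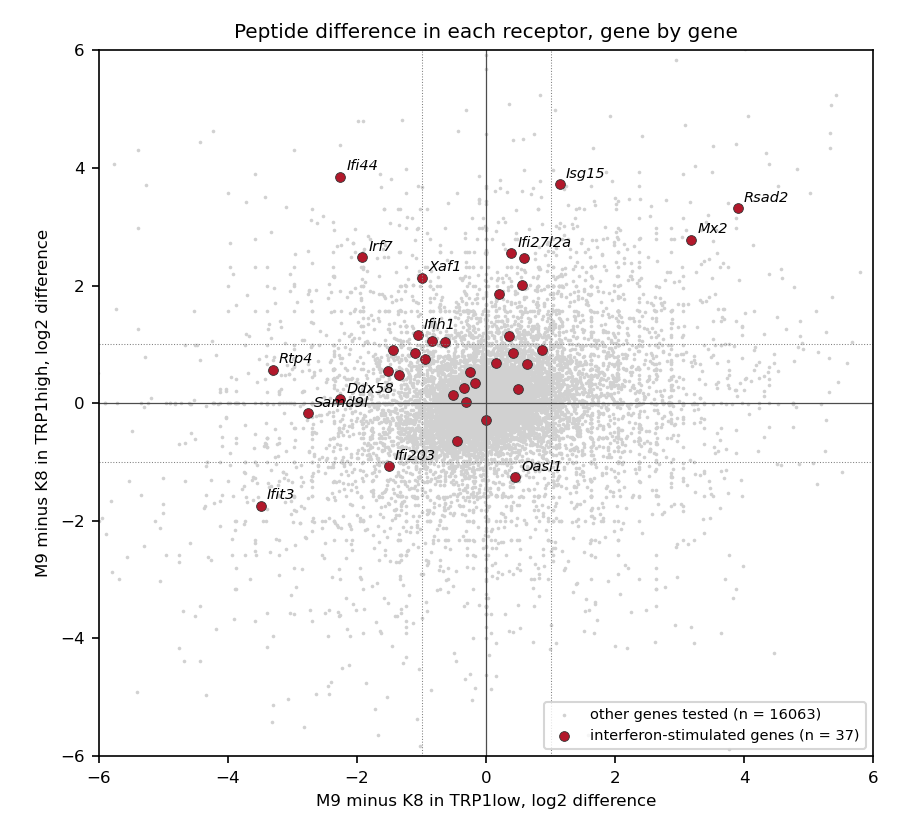
Log2 difference of M9 minus K8 in TRP1high (y axis) against the same in TRP1low (x axis) for the 37 members (red) and 16063 other genes tested (grey), of which 48 lie outside the axes. Dotted lines mark 2-fold. Of the members, 31 lie above 0 on the y axis, and 18 of these lie below 0 on the x axis.

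The receptor comparison asked how TRP1high and TRP1low cells differed with the same peptide. With M9, members were higher in TRP1high almost throughout: 27 of 37 were called higher, against 7.37% of all genes, and 0 lower, against 5.58% (13.0% of all genes in either direction). The median difference was 1.82, beside -0.03 over all genes, and 35 of 37 lay above 0 (46.9% of all genes). The exceptions were Ifit2 (-0.15) and Ifi203 (-0.14). With K8, 15 members were called higher in TRP1high, against 10.6% of all genes, and 7 lower, against 8.35% (22 in either direction, against 18.9%). There 25 lay above 0 (49.1% of all genes), with a median of 0.59 beside a median near 0 over all genes.

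By role, 9 of 11 sensors, 2 of 3 transcription factors, 3 of 5 ISG15 and ubiquitin genes and 13 of 18 other effectors were called higher in TRP1high with M9. The largest ratios with M9 were those of Cmpk2, 18.9-fold (95% counting interval 13.7 to 26.7) higher in TRP1high, and Mx1, 18.9-fold (95% counting interval 5.94 to 91.0) higher on 58 reads in TRP1high and 3 in TRP1low. Ifi27l2a was 15.9-fold (95% counting interval 14.3 to 17.6) higher, Mx2 14.0-fold, Usp18 13.7-fold (95% counting interval 10.9 to 17.2), Isg15 12.2-fold (95% counting interval 10.1 to 14.8), Oasl2 12.1-fold (95% counting interval 4.79 to 49.3) on 55 reads in TRP1high and 4 in TRP1low, Xaf1 9.81-fold and Oas3 9.08-fold (95% counting interval 8.14 to 10.1). With K8 the same genes were higher in TRP1high by less for most. Cmpk2 was 6.02-fold, Ifi27l2a 3.52-fold, Usp18 3.75-fold, Oasl2 3.34-fold, Oas3 3.33-fold and Isg15 2.03-fold higher, Xaf1 differed by 0.16 on the log2 scale, and Mx2 was at least 3.79-fold higher, since TRP1low with K8 held 0 reads (floor of 3 reads). The Isg15 call with K8 lay at the limit: its log2 difference was 0.98 with equal 75th percentiles and 0.91 with an added constant of 10, both under a call.

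The 7 members lower in TRP1high with K8 were Ifi44, Herc6, Rtp4, Irf7, Ifih1, Ddx58 and Samd9l. Ifi44 was 46.8-fold (8.06 to 1948) lower, on 1 read in TRP1high and 35 in TRP1low. The fold was 3.69 for Herc6, 3.64 for Rtp4, 2.98 for Irf7, 2.57 for Ifih1, 2.18 for Ddx58 and 2.15 for Samd9l. All 7 lay above 0 in TRP1high with M9, with log2 differences from 0.46 (Herc6) to 2.83 (Irf7). Stat2, Zbp1, Eif2ak2 and Rsad2 were called higher in TRP1high with both peptides, by 3.95, 3.40, 3.54 and 5.66-fold with M9 and by 2.93, 3.32, 2.06 and 16.1-fold with K8, where Rsad2 had 15 reads in TRP1high and 1 in TRP1low with K8 (interval 1.68 to 461). The comparisons within a receptor and within a peptide share libraries and are not independent of each other.

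**Figure D3:**
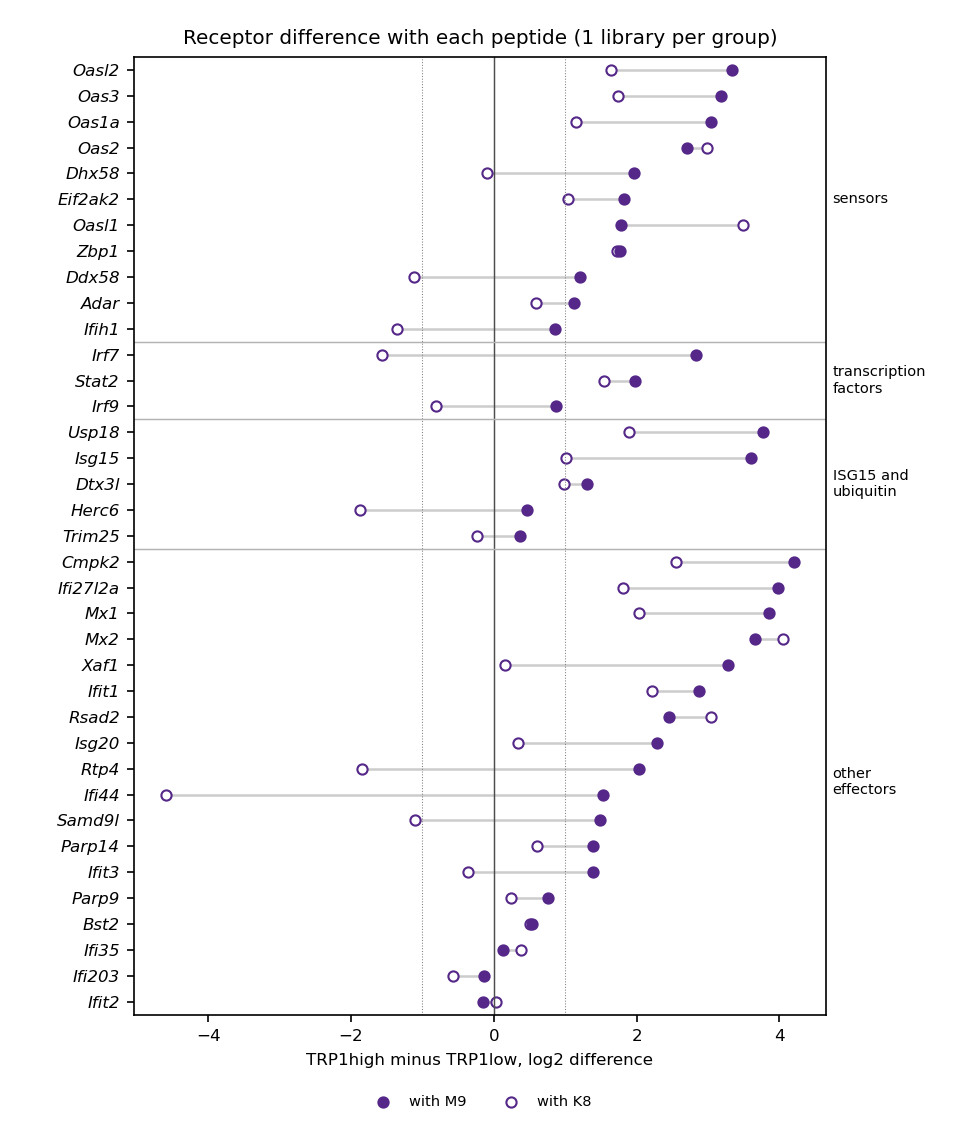
Log2 difference of TRP1high minus TRP1low with M9 (filled) and with K8 (open) for each member, 1 library per group, grouped by role. Dotted lines mark 2-fold. With M9 all but Ifit2 and Ifi203 lie right of 0, and with K8 the open circles of Ifi44, Herc6, Rtp4, Irf7, Ifih1, Ddx58 and Samd9l lie left of -1.

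Across all 4 libraries, an additive model of receptor and peptide was fitted to all 16100 genes with limma. After Benjamini-Hochberg adjustment over all genes, 0 members passed 0.05 for the peptide (lowest adjusted p = 0.58, limma) and 0 for the receptor (lowest adjusted p = 0.34, limma), as for 0.0% of all genes in each. At an unadjusted p under 0.05 there were 5 members for the peptide (13.5%, against 8.34% of all genes) and 15 for the receptor (40.5%, against 12.7%). Of the members, Rsad2 (3.61, SE 0.27) and Mx2 (2.98, SE 0.23) had the largest fitted peptide differences, higher with M9 in both receptors. In TRP1low they rested on 27 reads with M9 and 1 with K8 for Rsad2, and on 8 and 0 for Mx2, which was not called there. The SE of Mx2 also depends on how 0 reads are treated. Of the 15 members counted for the receptor, Mx1, Mx2, Oas2, Oasl1, Oasl2 and Rsad2 held under 10 reads in at least 1 library. The model has 1 residual degree of freedom, which is the disagreement between the pairs of libraries, so these p-values do not measure the spread between cultures.

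Genes that share a family or a locus with members were counted from a separate list, of which 15 of 26 symbols had a row. With M9, 6 of the 15 were called higher and 2 lower in TRP1high (5.14% and 4.73% of all genes). In TRP1low, 0 were called higher and 8 lower (7.67% and 7.43% of all genes). Ifit1bl1, an Ifit paralogue on chromosome 19, was the gene called lower in both, at log2 4.64 with M9 and 7.66 with K8 in TRP1high, and at 4.52 with M9 and 9.58 with K8 in TRP1low. The HIN-200 genes, whose proteins bind DNA in the nucleus or cytoplasm, lie around Ifi203 on chromosome 1 (173468485 to 173942672, mm10), and their description was chosen after their values were seen. Of the 8 with a row, the member Ifi203 included, 7 lay above 0 in TRP1high (all but Ifi203), against 45.8% of all genes. All 8 lay below 0 in TRP1low, where 51.8% of all genes lay above 0. In opposite directions 5 were called, against 1.14% of all genes. Ifi206 stood at log2 10.34 with M9 and 8.05 with K8 in TRP1high, and at 6.65 with M9 and 8.56 with K8 in TRP1low, 4.89-fold (95% counting interval 4.28 to 5.6) higher with M9 in TRP1high and 3.78-fold (2.98 to 4.82) lower in TRP1low. Ifi211 stood at log2 8.32 with M9 and 5.70 with K8 in TRP1high, and at 4.92 with M9 and 6.82 with K8 in TRP1low. Ifi213 differed by 1.93 in TRP1high and -2.75 in TRP1low, Ifi209 by 1.37 and -1.43, and Ifi204 by 1.77 and -1.32 on 6 to 24 reads. HIN-200, Ifit and Oas genes hold similar copies, among which estimated counts can be split, so single values are uncertain.

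Upstream, of 20 interferon genes listed only Ifng had a row, and the others are not analysed here. Ifng, the T cell interferon gene, stood at log2 12.74 with M9 and 9.70 with K8 in TRP1high, and at 13.76 with M9 and 12.89 with K8 in TRP1low. Its lowest library was TRP1high with K8 and its highest TRP1low with M9, the library in which 0 members were highest. The part of interferon gamma in the levels of the members was not tested. The type I receptor chains lay within 2-fold, with Ifnar1 differing by -0.38 in TRP1high and -0.52 in TRP1low and Ifnar2 by 0.15 and -0.49. Jak1 differed by -0.66 and -0.84 and Tyk2 by 0.18 and -0.22. Of the 10 receptor and Janus kinase pathway genes with a row, 1 (Ifngr1, -1.15) was called lower in TRP1high and 0 were called in TRP1low. Of 8 negative regulators, 1 (Socs3, -1.07) was called lower in TRP1high and 0 were called in TRP1low.

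Among 16 genes that lead to type I interferon production, 1 was called higher and 2 lower in TRP1high, and 2 higher and 4 lower in TRP1low. Of all genes, 5.14% were called higher and 4.73% lower in TRP1high, and 7.67% and 7.43% in TRP1low. The cytosolic DNA and RNA pathway adaptors Tmem173, which encodes STING, and Mavs lay close to 0 (Tmem173 -0.05 and -0.11, Mavs 0.06 and -0.08). Tlr4 and Tlr9, Toll-like receptors that B and myeloid cells carry, were the 2 called lower with M9 in both receptors. Tlr4 differed by -3.52 in TRP1high (0 reads with M9, 11 with K8) and -2.44 in TRP1low (2 and 11). Tlr9 differed by -4.75 in TRP1high (0 and 26) and -1.85 in TRP1low (4 and 13). At 0 reads, the TRP1high values stand only for at least 3.54-fold (Tlr4) and 8.74-fold (Tlr9) lower (floor of 3 reads). Irf5, a factor of B and myeloid cells, was the 1 called in opposite directions (1.07 and -2.83). The 18 genes more tied to interferon gamma, of which Irf1 also stands among the 16, had medians of -0.06 (TRP1high) and -0.09 (TRP1low), with 0 called higher and 2 lower (Cxcl9 and Ciita) in TRP1high, and 2 higher (Gbp5 and Iigp1) and 2 lower (Cxcl10 and Gbp3) in TRP1low. Their medians lay nearer 0 than the members' 0.74 and -0.34, a difference between lists that was not tested.

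**Figure D4:**
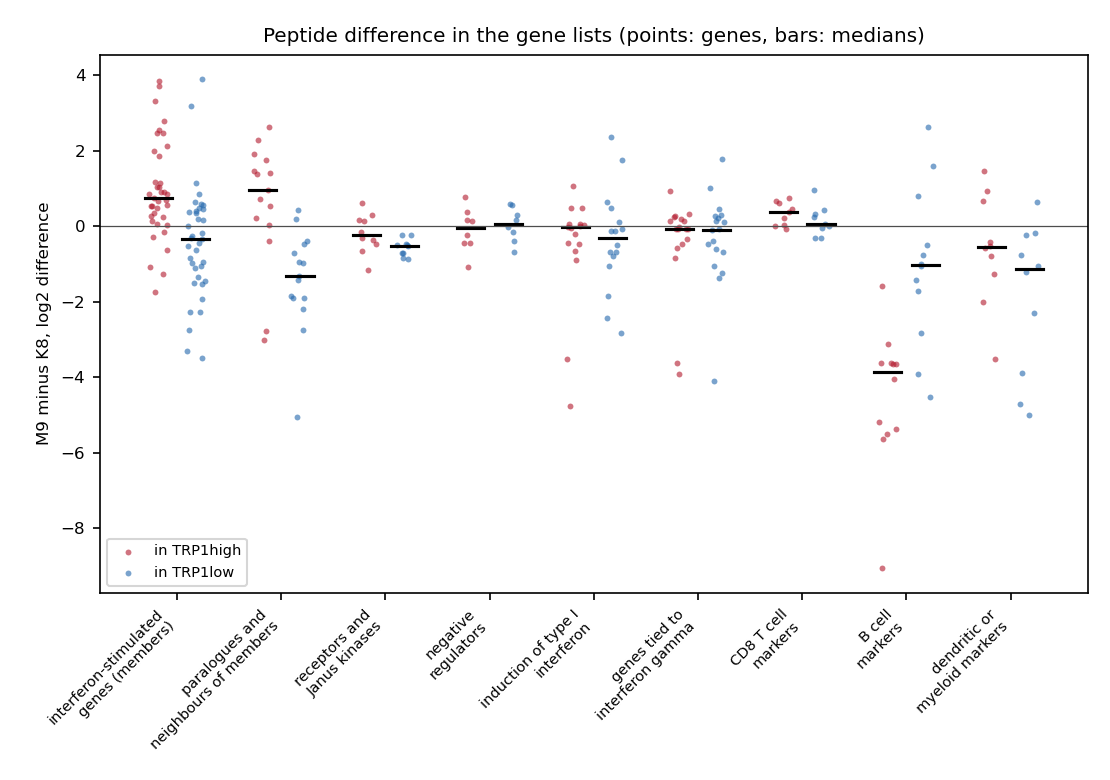
Log2 difference of M9 minus K8 for each gene with a row in 9 lists, in TRP1high (red, left of each pair) and TRP1low (blue, right). Black bars are medians, which are 0.74 and -0.34 for the members and 0.95 and -1.32 for their paralogues and neighbours. B cell markers lie below 0 throughout in TRP1high.

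Markers of other cell types also differed between the peptides. All 12 B cell markers were called lower with M9 in TRP1high (median -3.86), where the members were more often higher, and 4 of them held 0 reads with M9. In TRP1low 6 of them were also called lower, and 2, among them Ebf1 (2.63), were called higher (median -1.03), where the members were more often lower. The log2 differences in TRP1high and in TRP1low of the 6 called lower in both were -3.62 and -1.42 for Ms4a1, -5.20 and -1.72 for Cd79a, -5.51 and -2.82 for Igkc, -5.37 and -1.06 for Fcrla, -3.66 and -3.91 for Cr2 and -3.62 and -4.52 for Spib. The 9 dendritic or myeloid cell markers other than Bst2 that had a row summed to 75.7 normalized counts in TRP1high with M9 and 217 in TRP1high with K8, and to 240.1 in TRP1low with M9 and 1766 in TRP1low with K8, sums that Ccr9, which T cells also express, mostly carried in TRP1low with K8. Without Ccr9 the remaining 8 summed to 68.2 in TRP1high with M9 and 120.0 in TRP1high with K8, and to 185 in TRP1low with M9 and 318 in TRP1low with K8. Ccr9 differed by -3.53 in TRP1high and -4.70 in TRP1low, and Lyz2, the lysozyme gene of myeloid cells, by -2.01 and -3.90, the 2 of this list called lower in both receptors. Siglech, a plasmacytoid dendritic cell marker, held 0 reads in TRP1high with M9, 1 in TRP1high with K8, 0 in TRP1low with M9 and 23 in TRP1low with K8. The part of such cells in the levels of the members, in particular those highest in TRP1low with K8, was not tested.

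The members were also described by the promoter motif. For the 12 with it, the median peptide difference was 0.95 (TRP1high) and -0.08 (TRP1low), with 6 called higher and 2 lower in TRP1high and 2 higher and 4 lower in TRP1low. The 15 with a window and no match had medians of 0.74 and -0.64, with 5 called higher and 1 lower in TRP1high and 0 higher and 5 lower in TRP1low. With M9, 9 of the 12 and 10 of the 15 were called higher in TRP1high than in TRP1low, against 7.37% of all genes. These are counts of a chosen list, and the difference between the groups of genes was not tested.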

How the data were processed

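RNA sequencing was done on 4 libraries of sorted mouse T cells, 1 per combination of receptor and peptide, grouped by sample title. The authors deposited 1 log2 normalized count per gene and library, per the file headers. The submitters' processing notes name Salmon 0.8.2, DESeq2 1.20.0 and mm10, while the sources used here do not give settings, annotation or filters. The smallest value was 0 in each library and low values fell on multiples of 1 step, so values were read as log2 of an estimated count divided by a size factor, plus 1. The steps were 0.990 (TRP1high with M9), 0.998 (TRP1high with K8), 1.05 (TRP1low with M9) and 1.37 (TRP1low with K8) normalized counts per read. Of the values above 0 and up to 50, 56.2% to 56.4% lay within 0.01 of a whole read, so no count model was run.

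Reads printed are these values divided by the step and rounded. A fold of a single gene divides its normalized counts, leaving out the added 1, with 95% exact (Clopper-Pearson) counting intervals. For differences between receptors the interval is a Poisson approximation. Intervals and floors (3 reads) cover counting error only. A name that stood in 2 rows was left out. The call needs a 2-fold difference on the log2(value + 1) scale and 10 normalized counts in 1 library. Where all groups hold 1 library there is no replicate test. limma 3.58.1 in R 4.3.3 fitted receptor and peptide to all 16100 genes (eBayes, trend and robust off). Its code was run on simulated data with normal noise of 1 size for all genes and no difference between receptors. That setting differs from these data, so the run does not show how well the fit performs on them. Positions are from GENCODE M21 (GRCm38, mm10), and promoters from RefSeq (GRCm38.p6).

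The members and lists were chosen with earlier results of these data known. All members were described. Genes of other lists were named when called in the same direction in both receptors, when an interferon gene above the floor, or when a type I receptor chain, Jak1 or Tyk2. Results for some genes of these lists are not reported here. Other genes named, among them the HIN-200 genes, were chosen after their values were seen.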

Additional observations from a re-analysis of the deposited data

Results flagged for a closer look

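For 10 genes the M9 and K8 libraries differed at least 2-fold in opposite directions in the receptors. With 1 library per group these differences were not tested. The values are M9 minus K8 in TRP1high less the same in TRP1low, on the log2 scale. Among the members, Ifi44 had 6.12, resting on 1 read in TRP1high with K8, Irf7 had 4.39 and Ifih1 had 2.22. Of the HIN-200 genes next to Ifi203, Ifi213 had 4.68, Ifi211 had 4.52, Ifi206 had 4.20, Ifi204 had 3.09 and Ifi209 had 2.80. Irf5 had 3.90. In the opposite sense, the B cell marker Ebf1, which was lower with M9 in TRP1high and higher in TRP1low, had -6.68.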

How the results depend on the processing

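No paired analysis was possible because each group holds 1 library and the labels carry no replicate numbers, and for the same reason no library could be left out. Under TMM scaling, equal 75th percentiles, an added constant of 10, values raised to the floor of 3 reads, no filter on the mean and a minimum of 50 normalized counts, the number of members called stayed within 1.5 times in each comparison: 15 to 17 for M9 against K8 in TRP1high, 11 to 13 in TRP1low, 24 to 27 for TRP1high against TRP1low with M9, 17 to 22 with K8, and 20 to 22 for the difference between receptors. Of 740 recomputed values of single members, 0 changed the sign of a called difference. Of 100 calls of a member in a comparison, 18 were lost under at least 1 of these settings, 7 of them for TRP1high against TRP1low with K8. Isg15 (0.98) lost that call with equal 75th percentiles. An added constant of 10 ended the calls of Oas1a (0.94) and Oasl1 (just under 2-fold) for M9 against K8 in TRP1high, Isg20 (-0.90) in TRP1low, Ifit3 (0.83) and Ifi44 (just under 2-fold) for the receptors with M9, Isg15 (0.91) and Oas1a (0.92) with K8, and Mx1 (0.96) for the difference between receptors. The other losses came with the minimum of 50 normalized counts, in Ifi44, Rsad2, Oasl1, Oasl2, Mx1 and Mx2. The difference between receptors of Mx2, not called at -0.40, was 1.41 with the constant of 10 and 2.0 with values raised to the floor, so its direction depends on how 0 reads are treated. With an added constant of 10, which shrinks differences of low genes, the members' median was 1.61 for the receptor difference with M9, against 1.82, and 1.16 for the difference between receptors, against 1.65. The limma fit called 0 members for the peptide under all of its 6 alternatives. For the receptor it called 3 members (Dtx3l, Stat2 and Zbp1, lowest adjusted p = 0.016, limma) with trend and robust on, against 1.14% of all genes, and 0 under the other 5, and the cause was not tested. Depth limits Oas2, Oasl1, Oasl2, Mx1, Mx2, Rsad2, Ifit3 and Ifi44, which held under 10 reads in at least 1 library.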
